A study of Mus musculus with 10 samples.

Results

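The genes of the matrix metalloproteases (Mmp), the Adamts proteases with their Adamts-like relatives (Adamtsl) and the tissue inhibitors of metalloproteases (Timp) were described in mSCLC-2405, a cell line from a small cell lung cancer of the mouse, after culture with stiripentol or its vehicle. Members were taken by name, with earlier results of these data known. They were every gene of the table whose symbol begins with Mmp and a digit or with Adamts, or is Timp1 to Timp4. Symbols holding a hyphen were left out. This gave 46 of the 26335 genes, made up of 20 Mmp, 17 Adamts, 5 Adamtsl and 4 Timp genes. Of these, 25 had a mean log2 CPM above 0 over the 10 libraries (11 Mmp, 8 Adamts, 3 Adamtsl and 3 Timp genes), where CPM stands for the count of a gene scaled to the total count of its library (counts per 1e6 reads). Just inside this limit were Mmp15, with a mean of 1.02, and Mmp10, with 0.52, and just outside it were Adamts12, with -0.66, and Mmp2, with -0.84.

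The line was derived from the primary lung tumor of a mouse given an adenovirus carrying Cre through the trachea, so that both groups carry the same Cre-made deletions and both come from 1 line. The 5 control libraries came from cells cultured for 48 h with DMSO, the vehicle, and the 5 stiripentol libraries from cells cultured for 48 h with stiripentol, an antiseizure medication, at 250 μM. The labels number the libraries of a group but do not say from which culture each came, so the p-values below measure only the spread between these libraries. The study compared the groups to learn how expression changes in cells kept with the drug.

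Matrix metalloproteases are zinc-dependent enzymes, secreted or held in the cell membrane, that cut collagens, proteoglycans and glycoproteins of the extracellular matrix as well as proteins of the cell surface. They are made as inactive precursors whose propeptide has to be removed, and the Timp proteins bind their active site and block it. The Adamts enzymes are secreted relatives with thrombospondin repeats, which trim procollagens, cut aggregating proteoglycans or act on microfibrils, whereas the Adamtsl proteins share these repeats but lack the protease domain. In lung tumors these genes are studied for their part in invasion and in the remodeling of the matrix around tumor cells.

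The recovered read totals ranged from 22375625 (control 5) to 65299372 in control libraries and from 55015760 to 60670901 in stiripentol libraries. Each group split into 2 clusters of libraries, with correlations across genes of 0.983 to 0.997 within a cluster and of 0.920 to 0.939 between the clusters of a group. Controls 4 and 5 with stiripentol 1 and 2 are called set A here, and controls 1 to 3 with stiripentol 3 to 5 set B. Which control cluster goes with which stiripentol cluster rests only on the order in which the study numbers its controls. Controls 4 and 5 correlated at 0.881 to 0.904 with stiripentol 1 and 2 and at 0.932 to 0.938 with stiripentol 3 to 5. For controls 1 to 3 these correlations were 0.840 to 0.875 and 0.920 to 0.936. Both control clusters were thus more like stiripentol 3 to 5, and stiripentol 1 and 2 were more like controls 4 and 5. The values themselves therefore do not settle that pairing. Controls 1 to 3 also had another value for a gene with no reads (-4.82) than the other 7 libraries (-4.74) as deposited.

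Of the markers of the labelled cell type, Epcam had a log2 CPM of at most -3.61, and 2 of the 6 neuroendocrine genes in the table, Ncam1 and Uchl1, passed the limit of log2 CPM 0. Ncam1 rose by 0.46, and of the 4 tuft cell markers Avil rose by 5.01 and Dclk1 fell by 1.45 on the log2 scale. The other tuft cell markers lay under the limit and were not tested. From control to stiripentol, their mean log2 CPM went from 0.99 to -2.53 (Pou2f3) and from -1.98 to -3.63 (Trpm5). The keratin genes Krt8, which fell by 0.36, and Krt18 lay between 9.43 and 10.54 in all libraries and the mesenchymal gene Vim between 11.03 and 12.15. The cells are therefore called by the name of their line only. Among 9 fibroblast markers, 7 were tested and 4 fell with stiripentol (limma, adjusted p under 0.05), with log2 changes of -5.71 for Col3a1, -2.30 for Col1a2, -1.49 for Pdgfrb and -1.27 for Pdgfra. The log2 of the summed CPM of the fibroblast list was 11.41 to 11.93 in control and 11.29 to 12.20 in stiripentol libraries. That sum was mostly Vim, at 11.03 to 11.72 in control and 11.18 to 12.15 in stiripentol libraries, so it says little of the other members. Of the same list, Thy1 and Lum lay at or below -3.52 throughout. Of the leukocyte markers, Ptprc lay at or below -3.52 and Itgam at or below -3.92, while the lysosomal gene Cd68 rose by 3.21. The log2 of the summed CPM of that list was 2.74 to 4.26 in control and 5.89 to 6.70 in stiripentol libraries. This sum was mostly Cd68, at 2.05 to 4.17 in control and 5.78 to 6.68 in stiripentol libraries. Lyz2, the other leukocyte marker tested, changed by 0.41 and was not called (limma, adjusted p = 0.648). None of the 4 endothelial markers passed the limit, and the log2 of their summed CPM was -1.24 to -0.27 and -1.18 to 0.44. The part of other cell types or cell states in the results below was not tested, and in RNA from whole cultures fewer cells with a transcript and less transcript per cell cannot be told apart.

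Of the 25 genes, 13 fell with stiripentol and 0 rose (limma with a mean-variance trend, Benjamini-Hochberg adjusted p under 0.05 over 12306 genes). Among all genes tested, 14.1% were called lower and 13.6% were called higher. No member was higher at an unadjusted p under 0.05 either, where 5130 of the 12306 genes passed in either direction. Limma voom on the recovered reads also called 13 lower and 0 higher, against 15.2% and 14.3% of all genes. The 13 were 5 of 11 Mmp genes (Mmp3, Mmp10, Mmp13, Mmp9 and Mmp14), 6 of 8 Adamts genes (Adamts7, Adamts9, Adamts14, Adamts10, Adamts2 and Adamts6), 1 of 3 Adamtsl genes (Adamtsl4) and 1 of 3 Timp genes (Timp2). The median log2 change was -0.69 over the 25 members and -0.06 over all genes tested. Mmp3 and Mmp10 passed the limit of log2 CPM 0 through the control libraries, since their stiripentol means lay below it.

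In 12 of the 25 members, every stiripentol library lay below every control library, against 14.3% of all genes tested. All 12 were among the 13 called lower, and the calls rest on the same values. In no member did every stiripentol library lie above every control, against 13.0% of all genes. The exception among the 13 was Mmp9, described below. All 13 were lower in set A and in set B, as were 99.6% of the 1740 genes called lower, so this says little of the members. All but Mmp9, 12 of the 13, also passed the test in each set fitted alone, as did 90.5% of those genes and 12.8% of all genes tested.

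**Figure D1:**
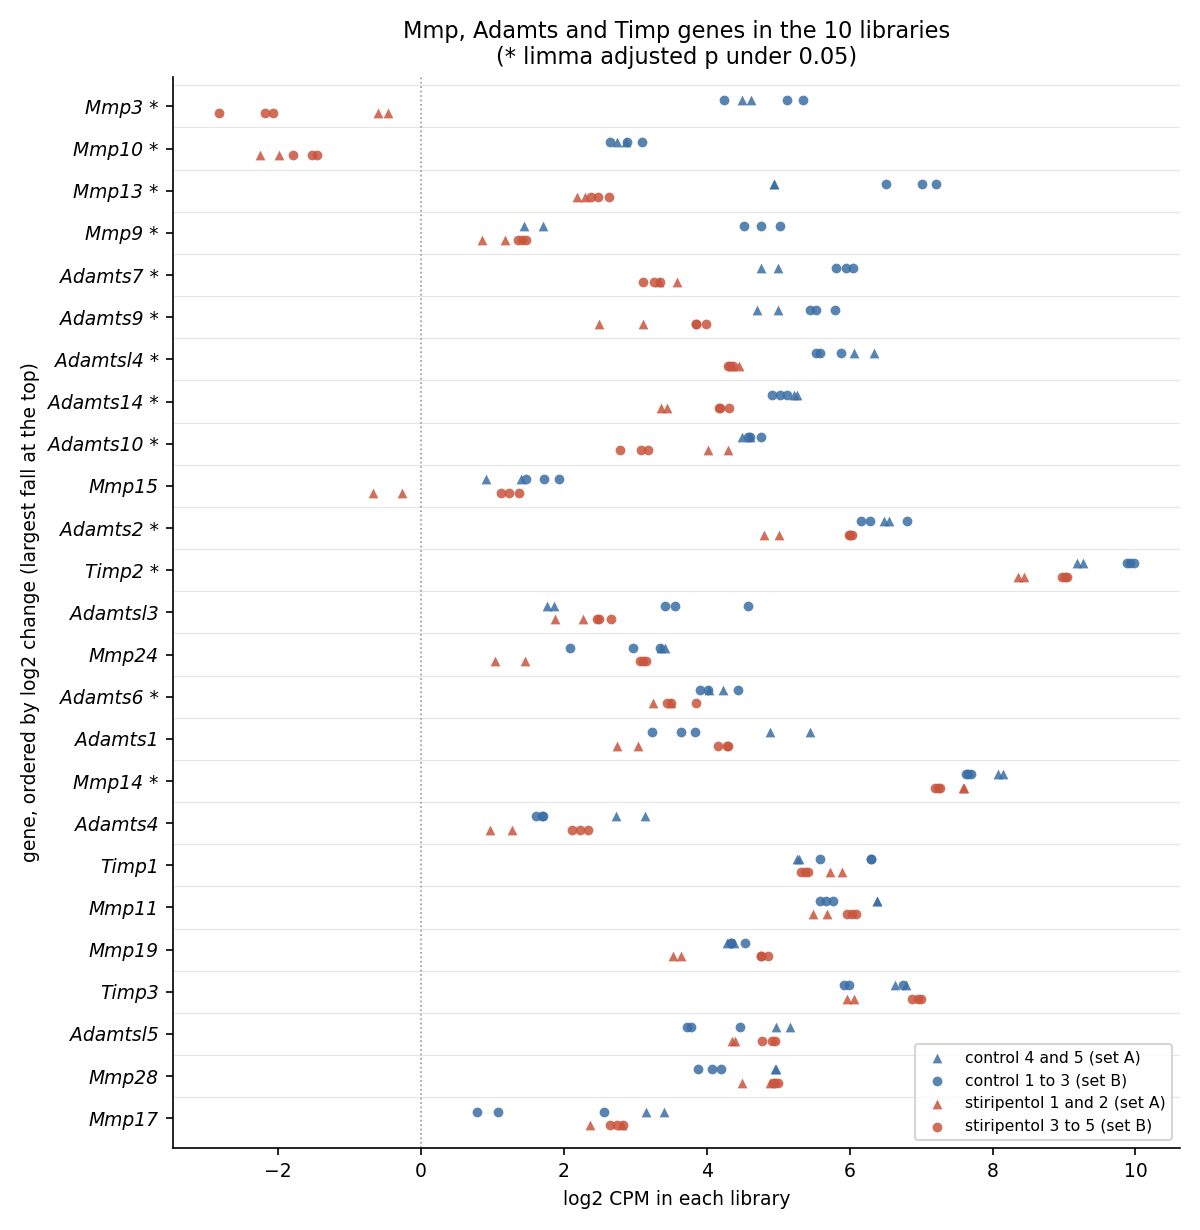
Log2 CPM (horizontal axis) of the 25 members with a mean above 0 in each of the 10 libraries, ordered from the largest fall to the largest rise in mean, with controls in blue, stiripentol in red, set A as triangles and set B as circles. Asterisks mark the 13 genes called lower; for Mmp3 the red points lie between -2.82 and -0.45 and the blue points between 4.24 and 5.34, whereas for Mmp17 the red points (2.37 to 2.83) lie within the blue range (0.79 to 3.40).

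The 3 genes with the largest falls lie in 1 cluster of Mmp genes on chromosome 9. Positions are those of the mouse build GRCm38 (mm10) with GENCODE M21, and all 46 members are protein-coding genes there. The cluster holds 8 members within 402.47 kb (chr9:7272514-7674979). Mmp13 (chr9:7272514-7283331), Mmp3 (chr9:7445822-7455975) and Mmp10 (chr9:7502352-7510240), each on the plus strand, were the members of the cluster that passed the limit. The stretches of 150 bases that end just before the RefSeq start of these genes are shown because the 3 genes lie in 1 cluster and all fell, and because AP-1, a pair of Fos and Jun proteins that growth signals activate, is a textbook regulator of their promoters. Capitals mark the AP-1 motif TGANTCA, which reads the same on both strands. The sequences are from RefSeq (GRCm38.p6), 5′ to 3′ on the plus strand. RefSeq places the start of Mmp10 at base 7502342, which is 10 bases before the GENCODE start given above, and the other 2 starts are the same in both.
Mmp13, chr9:7272364-7272513: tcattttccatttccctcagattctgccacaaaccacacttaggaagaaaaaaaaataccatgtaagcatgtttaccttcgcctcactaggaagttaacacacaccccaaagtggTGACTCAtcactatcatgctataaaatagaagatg
Mmp3, chr9:7445672-7445821: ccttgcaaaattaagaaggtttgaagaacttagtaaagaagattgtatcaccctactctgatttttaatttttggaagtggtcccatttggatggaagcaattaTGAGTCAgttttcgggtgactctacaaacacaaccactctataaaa
Mmp10, chr9:7502192-7502341: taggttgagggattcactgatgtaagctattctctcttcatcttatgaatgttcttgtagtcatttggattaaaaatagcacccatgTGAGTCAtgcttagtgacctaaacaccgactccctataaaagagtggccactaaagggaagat

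Counted from the RefSeq start, the motif began 35 bases before the start of Mmp13, 46 bases before that of Mmp3 and 63 bases before that of Mmp10. Promoter sequences were at hand for 18 of the 25 members. Within 250 bases before the start, TGANTCA was found in 3 of the 18, the 3 genes above, and in 6.75% of 32851 promoters. The Ets family motif AGGAAG (on either strand) was found in 5 of the 18, namely Mmp13, Mmp14, Mmp3, Timp1 and Timp3, and in 29.5% of all promoters. The letters TATAAA (on either strand) were found in 4 of the 18, namely Adamts1, Mmp10, Mmp13 and Mmp3, and in 12.4% of all. AGGAAG and TATAAA do not overlap the AP-1 motif in the stretches shown. There TATAAA began 16 bases before the RefSeq start of Mmp13, 7 before that of Mmp3 and 29 before that of Mmp10. The 3 starts thus lie at unlike distances from it. A match is a stretch of letters and no measure of binding.

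Mmp3 encodes a stromelysin, which cuts proteoglycans, fibronectin and laminin and removes the propeptide of other Mmp proteins. Its log2 CPM was 5.12, 5.34, 4.24, 4.62 and 4.50 in controls 1 to 5 and -0.45, -0.60, -2.82, -2.18 and -2.08 in stiripentol 1 to 5. The groups did not overlap, and set B held the lowest 3 stiripentol libraries. The mean level was 4.76 ± 0.46 in control and -1.63 ± 1.04 in stiripentol libraries (SD, n = 5 each). The log2 change was -6.39 ± 0.47 (SE), an 83.9-fold lower level (limma, adjusted p = 3.56e-05). The low level rests on few reads, 6 to 42 per stiripentol library against 505 to 2354 per control, and because the authors' values hold a small added count, the fold is if anything understated. The change was -5.09 in set A and -7.26 in set B, a difference of 2.17 between the sets (limma interaction, adjusted p = 0.0013).

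Mmp10 encodes the second stromelysin. Its log2 CPM was 3.10, 2.65, 2.88, 2.87 and 2.74 in controls and -1.99, -2.25, -1.45, -1.80 and -1.53 in stiripentol libraries, in the order of their numbers. All 5 controls lay within a narrow band far above all stiripentol libraries, which held 10 to 19 reads each. This was a log2 change of -4.65 ± 0.24 (SE), a 25.1-fold lower level (limma, adjusted p = 1.06e-05). It was alike in set A (-4.93) and set B (-4.47), with a difference between sets that did not pass the test (limma interaction, adjusted p = 0.21).

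Mmp13 encodes the collagenase that opens fibrillar collagens in mouse tissues. In controls 1 to 5 it stood at log2 CPM 7.01, 7.21, 6.51, 4.94 and 4.94, and in stiripentol 1 to 5 at 2.18, 2.30, 2.38, 2.49 and 2.63. The controls thus fell into a higher group (set B) and a lower group (set A), and the stiripentol libraries lay close together below both. Its log2 change was -3.72 ± 0.45 (SE), a 13.2-fold lower level (limma, adjusted p = 0.000396), with -2.69 in set A and -4.41 in set B. The difference between the sets was 1.72 (limma interaction, adjusted p = 0.000101).

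The other 5 genes of the cluster had at most 16 reads each over all 10 libraries. Mmp12, a macrophage elastase, had 3 reads over all controls and 5 over all stiripentol libraries, and Mmp1b had 1 read in all. Mmp8, the neutrophil collagenase, had 10 and 2, Mmp27 had 16 and 0, and the enamel protease Mmp20 had 0 and 1. For the 3 genes that passed the limit, these sums were 25405 control and 1526 stiripentol reads (Mmp13), 7891 and 106 (Mmp3), and 1997 and 74 (Mmp10). The transcripts of Mmp10 and Mmp3 shared 81.2% of bases over 1338 aligned bases. Near copies among the 46 members, taken as at least 95% of bases shared over at least 100, were found for Mmp12 with Mmp1b alone, so that reads of these low genes may be split between them.

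**Figure D2:**
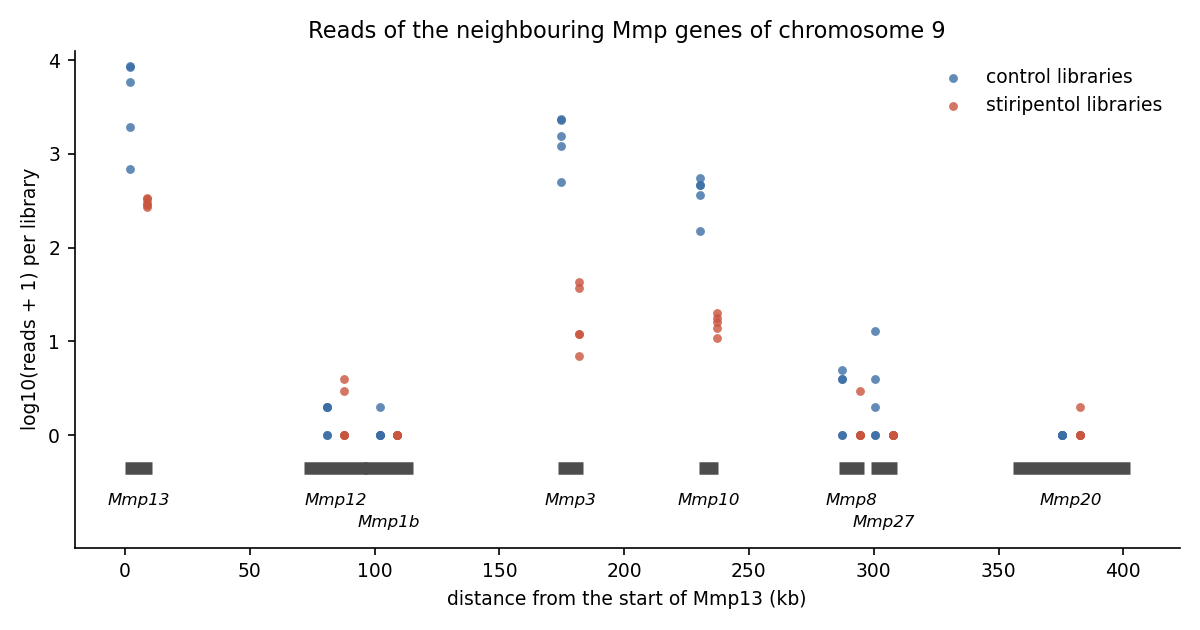
Reads per library, as log10 of reads + 1 (vertical axis), of the 8 neighbouring Mmp genes against the distance in kb from the start of Mmp13 (horizontal axis), with gray bars for the extent of each gene, blue points for the 5 controls and red points for the 5 stiripentol libraries. Mmp13, Mmp3 and Mmp10 hold reads in every library, with all controls above all stiripentol libraries, and the 5 genes between and beyond them have at most 4 reads in any library, apart from 12 reads of Mmp27 in control 3.

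Mmp9 (chr2:164940780-164955850), a gelatinase that cuts denatured collagens and basement membrane collagen, was the called gene that depended most on the set. Its log2 CPM was 5.03, 4.76 and 4.52 in controls 1 to 3 but 1.44 and 1.70 in controls 4 and 5. The stiripentol libraries stood at 0.85, 1.18, 1.47, 1.37 and 1.42. Stiripentol 3 lay above control 4, so the groups overlapped, and the high level was found in 3 controls of 5. The log2 change over all libraries was -2.23 ± 0.70 (SE) (limma, adjusted p = 0.037). It was -0.56 in set A, which did not pass the test when fitted alone (limma, adjusted p = 0.050), and -3.35 in set B. The difference between the sets was 2.79 (limma interaction, adjusted p = 3.78e-06). The call was lost when any of controls 1 to 3 or any stiripentol library was left out, with adjusted p of up to 0.088.

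Mmp14 (chr14:54431612-54445364) encodes the membrane-anchored collagenase that, with Timp2 as a bridge, activates the precursor of the gelatinase Mmp2. It stood at log2 CPM 7.63, 7.66, 7.69, 8.08 and 8.15 in controls and at 7.58, 7.59, 7.20, 7.23 and 7.27 in stiripentol libraries. The lowest control (7.63) and the highest stiripentol library (7.59) almost met, and in both groups the libraries of set A were the higher ones. The log2 change was -0.47 ± 0.14 (SE), a 1.38-fold lower level (limma, adjusted p = 0.033), and it was similar in set A (-0.53) and set B (-0.43). Leaving out any of controls 4 and 5 or stiripentol 3 to 5 took the adjusted p past 0.05, up to 0.070.

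**Figure D3:**
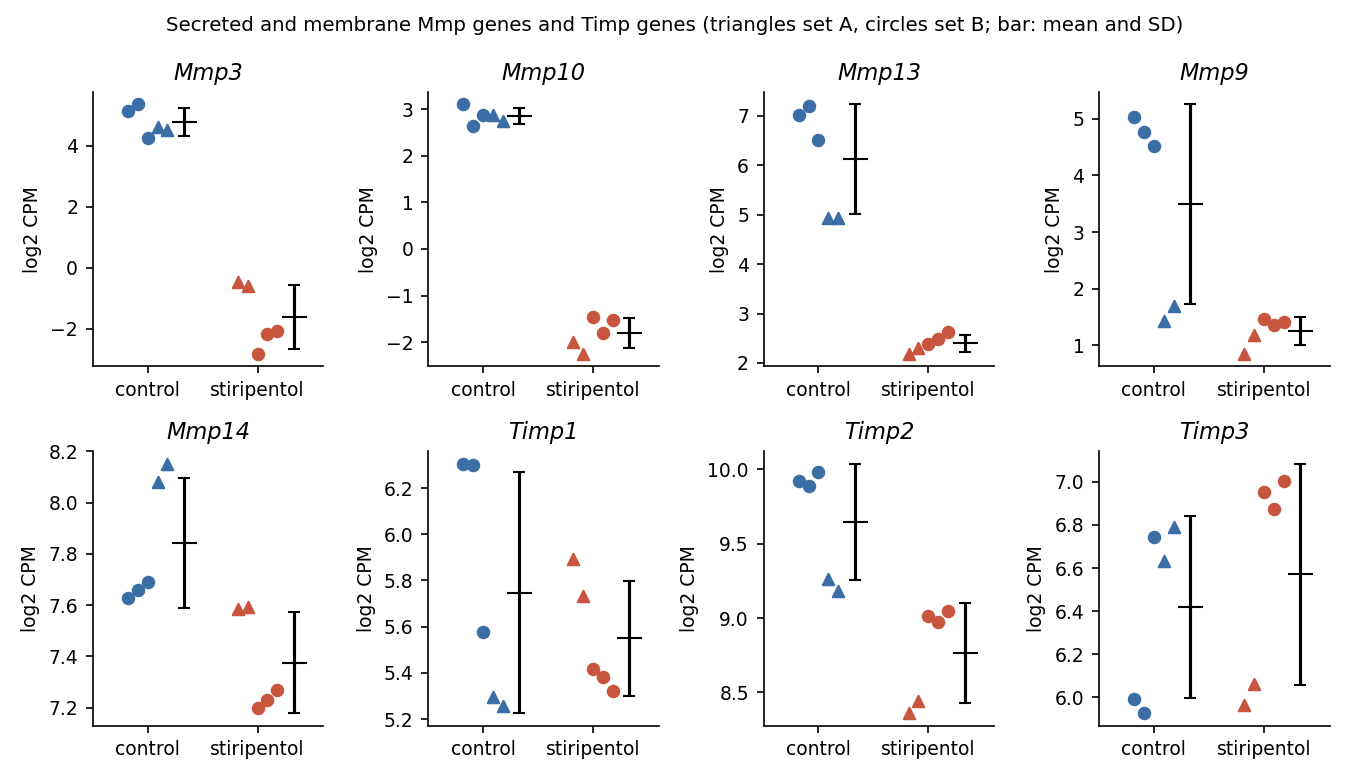
Log2 CPM (vertical axis, scaled for each gene) of 5 Mmp genes and 3 Timp genes in the control (blue) and stiripentol (red) libraries, with triangles for set A, circles for set B and black bars for the mean and SD of 5 libraries. Mmp3, Mmp10 and Mmp13 show no overlap between groups, Mmp9 is high in controls 1 to 3 alone (4.52 to 5.03), and Timp1 and Timp3 show the sets crossing over.

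Of the 6 Mmp genes not called, none had stiripentol libraries clear of the controls. Mmp15, a membrane-bound protease, had a log2 CPM of 0.91 to 1.93 in control and -0.66 to 1.37 in stiripentol libraries, with a log2 change of -0.93 ± 0.43 (SE) (limma, adjusted p = 0.128). It was the 1 member not called that had the same sign in both sets, with -1.62 in set A and -0.47 in set B. Mmp24, another membrane-bound protease, ranged from 2.09 to 3.42 in controls and from 1.03 to 3.15 with stiripentol. Its change was -2.15 in set A and 0.31 in set B. Mmp11, a stromelysin that furin activates inside the cell, ranged from 5.59 to 6.38 and from 5.48 to 6.08. For Mmp11 the change was -0.80 in set A and 0.35 in set B, each past the test within its own set.

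Mmp19 stood at 4.29 to 4.54 in controls and at 3.53 and 3.64 in stiripentol 1 and 2 but 4.75 to 4.86 in stiripentol 3 to 5. Its change was -0.75 in set A and 0.39 in set B, and the mean change of -0.07 turned to 0.08 under quantile normalization, to 0.02 on median-centred values and to 0.01 with median-of-ratios size factors. Mmp28, an epithelial protease known from skin and lung, ranged from 3.88 to 4.97 in controls and from 4.49 to 4.99 with stiripentol. The change of Mmp28 was -0.27 in set A, which did not pass the test, and 0.91 in set B. Mmp17, held in the membrane by a lipid anchor, ranged from 0.79 to 3.40 and from 2.37 to 2.83, with -0.68 in set A and 1.27 in set B.

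Among the Adamts proteases, Adamts2 (chr11:50602084-50807573), Adamts14 (chr10:61197112-61273438) and Adamts3 trim the ends of procollagens. The first 2 of these passed the limit of log2 CPM 0, and both fell. Adamts14 stood at 5.13, 5.03, 4.91, 5.22 and 5.27 in controls and at 3.36, 3.44, 4.19, 4.17 and 4.31 in stiripentol libraries. The lowest control lay above the highest stiripentol library, with a log2 change of -1.22 ± 0.21 (SE), a 2.33-fold lower level (limma, adjusted p = 0.00249). The fall was larger in set A (-1.84) than in set B (-0.80), and the difference of -1.04 passed the test (limma interaction, adjusted p = 5.26e-05).

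Adamts2 stood at 6.29, 6.16, 6.80, 6.48 and 6.55 in controls and at 4.80, 5.01, 5.99, 6.01 and 6.03 with stiripentol. Stiripentol 1 and 2 lay well below the lowest control, while stiripentol 3 to 5 lay just below it. It changed by -0.89 ± 0.27 (SE) (limma, adjusted p = 0.031), with -1.61 in set A and -0.41 in set B. This call was lost in 6 of the 10 fits that left out 1 library (each control but control 2, and stiripentol 1 or 2), with adjusted p of up to 0.074. Adamts3 lay below the limit, with 39 to 88 reads in controls 1 to 3, 9 and 4 in controls 4 and 5, and 1 to 9 in stiripentol libraries.

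Adamts7 and Adamts12 are related enzymes that cut cartilage oligomeric matrix protein. Adamts7 (chr9:90163069-90208071) stood at log2 CPM 6.04, 5.95, 5.81, 4.76 and 5.00 in controls and at 3.33, 3.58, 3.26, 3.11 and 3.35 in stiripentol libraries. Its stiripentol libraries lay close to each other and all below the lowest control. The log2 change was -2.19 ± 0.26 (SE), a 4.55-fold lower level (limma, adjusted p = 0.000374), with -1.42 in set A and -2.69 in set B (limma interaction, adjusted p = 7.86e-05). Adamts12, under the limit, had 21 to 220 reads per control and 6 to 32 per stiripentol library, and without the limit its log2 change was -2.21 ± 0.58 (SE) (limma over all 26335 genes, adjusted p = 0.034).

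Of the 3 proteoglycan-cutting Adamts genes above the limit, 1 fell. This was Adamts9 (chr6:92772699-92943492), which cuts the aggregating proteoglycans aggrecan and versican and stood at 5.79, 5.53, 5.45, 4.71 and 5.00 in controls and at 2.50, 3.11, 3.99, 3.85 and 3.85 with stiripentol. The groups did not overlap, and in each group the libraries of set B were the higher ones. Its log2 change was -1.84 ± 0.32 (SE), a 3.57-fold lower level (limma, adjusted p = 0.00254), alike in set A (-2.05) and set B (-1.69), whose difference did not pass the test (limma interaction, adjusted p = 0.22). Adamts1, which cuts the same proteoglycans, ranged from 3.24 to 5.45 in controls and from 2.75 to 4.29 with stiripentol. Its change was -2.28 in set A and 0.67 in set B, each past the test in its own set and opposite in sign. Adamts4, an aggrecanase, showed the same split, with -1.81 in set A and 0.55 in set B. The libraries of set A were the higher controls of both genes, at 4.88 and 5.45 for Adamts1 and at 2.73 and 3.14 for Adamts4.

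Adamts15, a further aggrecanase, lay under the limit and had 150 and 52 reads in controls 4 and 5 against 11 to 29 in controls 1 to 3 and 8 to 25 with stiripentol. Without the limit its log2 change was -1.14 ± 0.78 (SE), which did not pass the test (limma, adjusted p = 0.374). Adamts5, the main aggrecanase of cartilage, had 56 reads over all 10 libraries.

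Adamts10 and Adamts6 are paired relatives that act on fibrillin microfibrils and the cell surface. Adamts10 (chr17:33524204-33553782) stood at 4.61, 4.57, 4.76, 4.60 and 4.49 in controls and at 4.01, 4.30, 2.78, 3.07 and 3.18 with stiripentol. All controls lay above all stiripentol libraries, of which stiripentol 3 to 5 were the lowest. On the log2 scale the change was -1.14 ± 0.28 (SE) (limma, adjusted p = 0.014), with -0.39 in set A and -1.63 in set B (limma interaction, adjusted p = 0.000197). Adamts6 (chr13:104287835-104496695) stood at 4.02, 3.91, 4.44, 4.03 and 4.23 in controls and at 3.25, 3.50, 3.45, 3.50 and 3.85 with stiripentol. The highest stiripentol library lay just below the lowest control. Its log2 change was -0.61 ± 0.16 (SE) (limma, adjusted p = 0.020) and was similar in set A (-0.76) and set B (-0.52).

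The Adamtsl proteins lack the protease domain and are found with fibrillin microfibrils. Adamtsl4 (chr3:95676201-95687917), known from the fibers that hold the eye lens, stood at 5.59, 5.53, 5.89, 6.06 and 6.35 in controls and at 4.35, 4.45, 4.32, 4.30 and 4.37 with stiripentol. The 5 stiripentol libraries lay very close to each other, all below the controls. The change amounted to -1.52 ± 0.16 (SE), a 2.88-fold lower level (limma, adjusted p = 0.000217), with -1.81 in set A and -1.34 in set B. Adamtsl3 ranged from 1.76 to 4.58 in controls and from 1.87 to 2.66 with stiripentol, and Adamtsl5 from 3.73 to 5.16 and from 4.35 to 4.95. Neither was called over all libraries. The change of Adamtsl3 was 0.26 in set A and -1.31 in set B, and that of Adamtsl5 was -0.69 in set A and 0.88 in set B.

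Of the inhibitors, Timp2 fell and Timp1 and Timp3 were not called. Timp2 (chr11:118301069-118355740), which inhibits most Mmp proteins and also helps Mmp14 to activate Mmp2, stood at 9.92, 9.89, 9.98, 9.26 and 9.18 in controls and at 8.36, 8.45, 9.01, 8.97 and 9.04 in stiripentol libraries. The lowest control lay just above the highest stiripentol library, and in each group set B was the higher. The log2 change was -0.88 ± 0.21 (SE), a 1.84-fold lower level (limma, adjusted p = 0.012), with -0.82 in set A and -0.92 in set B. Between the sets, the difference of 0.10 did not pass the test (limma interaction, adjusted p = 0.40).

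Timp1 (chrX:20870166-20874735), a secreted inhibitor that many cells raise in response to growth signals, stood at 6.31, 6.30, 5.58, 5.30 and 5.26 in controls and at 5.89, 5.73, 5.42, 5.38 and 5.32 with stiripentol. The stiripentol libraries lay between the lower and the upper controls. The log2 change over all libraries was -0.20 ± 0.24 (SE) (limma, adjusted p = 0.545), made up of 0.54 in set A and -0.69 in set B. Both passed the test in their own set, and so did their difference of 1.22 (limma interaction, adjusted p = 0.00155).

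Timp3 (chr10:86300372-86349506), the inhibitor that stays bound to the matrix and also blocks aggrecanases, stood at 5.99, 5.93, 6.74, 6.63 and 6.79 in controls and at 5.97, 6.06, 6.95, 6.88 and 7.00 with stiripentol. The 2 stiripentol libraries of set A lay beside the lowest controls, and those of set B exceeded all controls. The change of 0.15 ± 0.27 (SE) was not called (limma, adjusted p = 0.681), with -0.70 in set A and 0.72 in set B. Timp4, under the limit, had 0, 0, 7, 2 and 1 reads in controls and 6, 6, 7, 7 and 10 in stiripentol libraries. Without the limit, Timp4 was the 1 member called higher, with a log2 change of 1.33 ± 0.39 (SE) (limma over 26335 genes, adjusted p = 0.049), a call that rests on 46 reads in all.

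Most members that were not called had changes of opposite sign in the sets. Of the 12 members not called, 11 had opposite signs in the sets, against 50.9% of the 8892 genes not called. In 9 of them the change was lower in set A and higher in set B (37.4% of genes not called), and in 2 (Adamtsl3 and Timp1) it was the other way round (13.5%). These signs hold for the pairing of clusters used here, which the values do not settle, and the other pairing can change them. Opposite changes cancel in the mean of all libraries, so a gene with such changes is less readily called. In set A alone 21 of the 25 were lower and 1, Timp1, was higher, where 46.5% and 25.7% of all genes were called. In set B alone 16 were lower and 8 were higher, where 27.0% and 37.7% of all genes were called. The difference between the sets passed the test in 20 of the 25 members, against 63.3% of all genes, and did not pass it in Mmp10, Adamts9, Timp2, Adamts6 and Mmp14. When each cluster of libraries was reduced to 1 mean, which leaves 2 values per group, 0 of the 25 were called, as were 0 of all 12306 genes (limma), and 8 members had an unadjusted p under 0.05, against 9.07% of all genes.

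**Figure D4:**
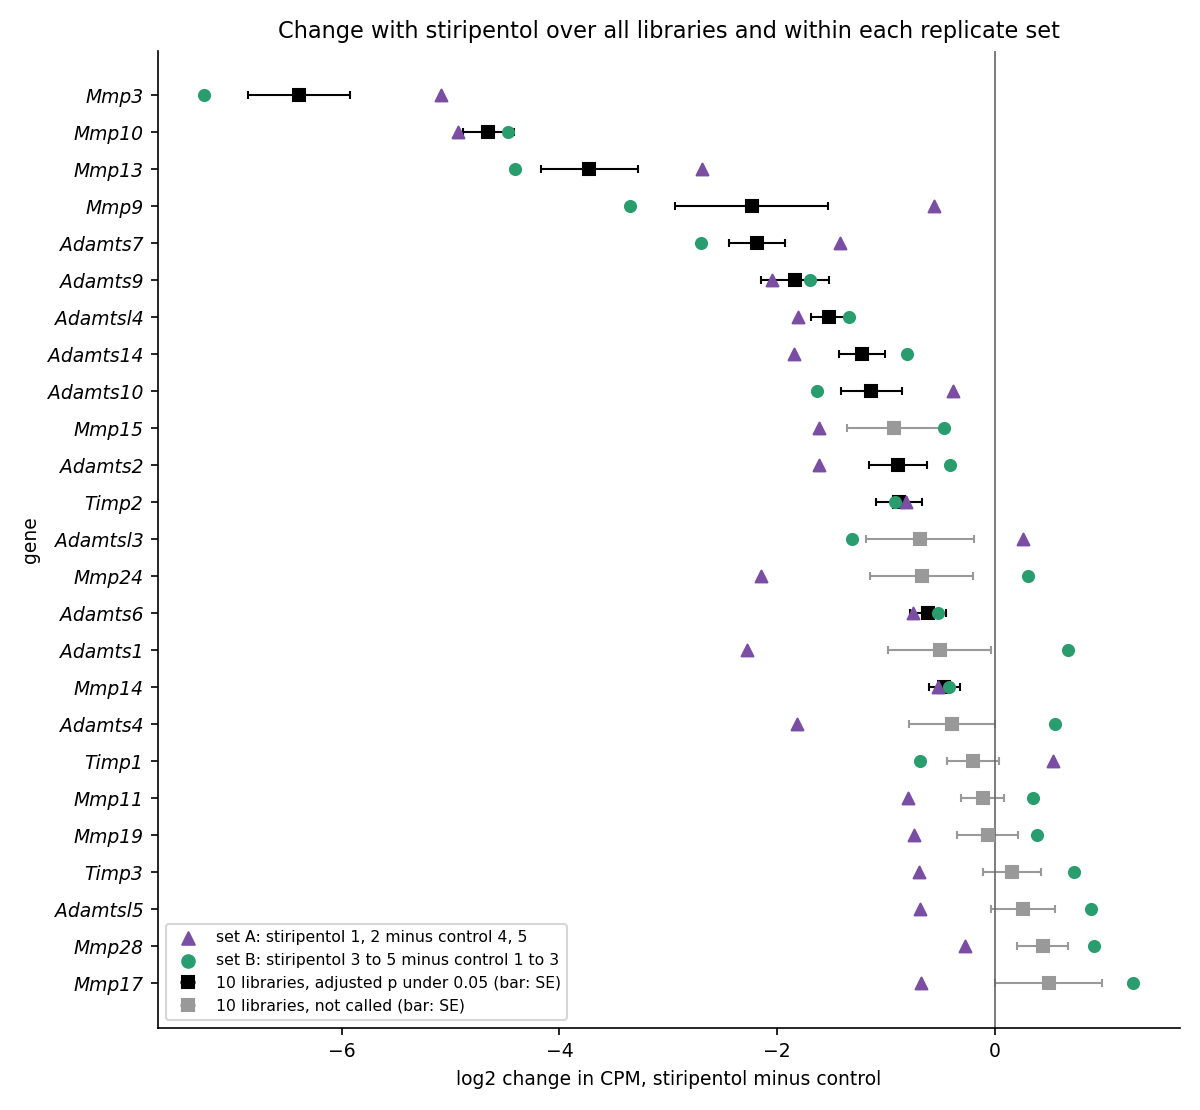
Log2 change with stiripentol (horizontal axis) of the 25 members, with squares and SE bars for the fit of all 10 libraries (black where the adjusted p was under 0.05, gray where not), triangles for set A and circles for set B. In the upper genes triangle and circle lie on the same side of 0, as for Mmp3 (-5.09 and -7.26), and in most of the lower genes they lie on opposite sides, as for Adamts1 (-2.28 and 0.67).

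The 21 members at or below the limit had between 0 and 543 reads over all 10 libraries. Adamts18, Adamts8 and Mmp16 had no reads, which allows up to 0.134 CPM in control 5, the shallowest library, and up to 0.055 CPM in the others (3 counts, counting error only). A further 7 had 1 to 19 reads in all. Besides Adamts12, Adamts3 and Adamts15, the gelatinase Mmp2 was the 1 member under the limit with a library above log2 CPM 0. Mmp2 had 13 to 88 reads per control and 14 to 21 per stiripentol library, with log2 CPM of -0.69 to 0.50 and of -1.84 to -1.32. Without the limit, its change was -1.50 ± 0.32 (SE) (limma over 26335 genes, adjusted p = 0.013).

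Other genes of the same biology were read from 5 lists. Of the 7 ADAM proteases tested, membrane-bound relatives that shed surface proteins, 1 fell and 0 rose. This was Adam12, with -2.04 ± 0.47 (SE). Of the 8 genes of plasminogen activation tested, a protease system that can activate Mmp precursors, 2 fell and 1 rose. The urokinase gene Plau fell by 1.87 on the log2 scale, from 6.36 to 6.89 in controls to 4.39 to 5.09 with stiripentol, and S100a10, a plasminogen-binding protein, fell by 0.44. Plgrkt, a plasminogen receptor, rose by 0.46.

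Of the 11 genes tested that activate or restrain metalloproteases, 3 fell and 0 rose. Thrombospondin genes led, with -3.23 ± 0.35 (SE) for Thbs1 and -2.59 ± 0.32 for Thbs2, matrix proteins that bind and help clear Mmp proteins. Furin, the convertase that removes the propeptide of Mmp11, of the membrane-bound Mmp proteins and of many Adamts enzymes, fell by 0.99. All 3 astacin-type genes tested fell, with -1.33 for Pcolce, which enhances procollagen C-terminal cutting, and -0.61 each for Bmp1, the protease that makes this cut, and Pcolce2. Of 11 matrix glycoproteins and proteoglycans tested, which include known substrates, 5 fell and 0 rose. Fbn1, the microfibril protein, fell by 3.48, Spp1 (osteopontin) by 2.36, Bgn by 1.62 and Matn2 by 0.92, these being the 4 called genes with the largest changes. The aggrecan gene Acan changed by -2.54 and was not called (limma, adjusted p = 0.074). These counts stand beside 14.1% of genes called lower and 13.6% called higher among all genes tested.

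Reads of some members can include those of a neighbor. Exons of Adamts9 (1381 bases with A730049H05Rik and 424 with Gm15737), Adamts7 (122 with Tbc1d2b), Timp3 (1733 with Syn3), Mmp19 (789 with Tmem198b and 212 with Gm47093), Mmp24 (637 with BC029722), Mmp28 (466 with 1700020L24Rik) and Mmp11 (155 with Chchd10) overlap exons of a gene on the opposite strand. Whether the counting used strand is not given in the sources used here, and these values hold that limit.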

How the data were processed

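Values were deposited by the authors as log2 CPM for each gene in each library, normalized with GENAVi per the study's methods, with a small count added in proportion to library size before the logarithm. The submitters' processing notes name the build mm10, and the aligner, annotation and strand setting are not given in the sources used here. The methods name a Lexogen 3′ mRNA kit and the sample records TruSeq total RNA, so levels were not scaled to gene length and no order of genes by level was drawn. The table's group means, p-values, q-values and fold changes from the authors' own comparison were not used.

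Whole reads (within 0.1 reads) were recovered for 100% of values. For the comparison of groups, limma 3.58.1 (R 4.3.3; mean-variance trend, no covariate) was run on these log2 values over the 12306 genes of 26335 with a mean log2 CPM above 0, with Benjamini-Hochberg adjustment and a call at an adjusted p under 0.05. A log2 change is stiripentol minus control, and understates changes of low genes. The difference between replicate sets was the interaction term of a second model. Both models were tested on simulated reads drawn without clusters of libraries, so that test does not cover the split of the libraries seen here. The members and lists were chosen with earlier results of these data known. Every member with a mean above 0 was named, with values per library for called members and Timp genes, and members below it where any library exceeded 0. From the other lists at most 4 called genes per direction were named, beside markers that were low or high throughout and some others not called. Counting error alone is covered by the limit given for genes with no reads. Transcripts were compared with blastn 2.17.0+, and Python 3.11.15, pandas 2.3.3 and matplotlib 3.10.9 were used. Same-numbered control and stiripentol libraries did not deviate together (correlations of -0.24 to 0.06). Numbers 1, 2, 4 and 5 each join libraries of different sets, however, so these correlations cannot tell whether libraries were paired. The numbers were not taken as pairs. Another 2 alternatives were chosen after seeing the data, the 7 libraries that share a no-read value and controls 1 to 3 against all stiripentol libraries. The other alternatives comprised a block for the replicate number, omission of each library in turn, each set alone, a set term, 3 scalings, 3 filters, pseudocounts of 0.1 and 1 CPM, limma without trend, limma voom and a minimum absolute log2 change of 1. A few items are not reported here.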

Additional observations from a re-analysis of the deposited data

Results flagged for a closer look

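The effect of stiripentol, as a log2 change in set A minus that in set B, differed between the sets in 20 members (limma interaction, adjusted p under 0.05, against 63.3% of all genes tested). The sets are clusters of libraries found in the data, and their pairing rests on the study's numbering of its controls. A positive value means a smaller fall, or a larger rise, in set A. Among the genes called lower, the difference was 2.79 for Mmp9, 2.17 for Mmp3, 1.72 for Mmp13, 1.27 for Adamts7 and 1.25 for Adamts10, which fell more in set B. It was -1.20 for Adamts2, -1.04 for Adamts14 and -0.47 for Adamtsl4, which fell more in set A.

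Among the genes not called, the difference was -2.95 for Adamts1, -2.45 for Mmp24, -2.36 for Adamts4, -1.95 for Mmp17, -1.57 for Adamtsl5, -1.42 for Timp3, -1.18 for Mmp28, -1.15 for Mmp11, -1.15 for Mmp15 and -1.14 for Mmp19. It was 1.57 for Adamtsl3 and 1.22 for Timp1, the genes with the opposite order.

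Among 52 groups of 5 values, 2 held 1 value set well apart, and chance alone does so in about 1 of 20 groups. Mmp28 stood at log2 CPM 4.49 in stiripentol 1, below the 4.89 to 4.99 of the other stiripentol libraries. Control 5 held 22375625 reads, against 57991647 or more in the other controls.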

How the results depend on the processing

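The count of 13 members called lower was 21 in set A alone, 0 with 1 mean per group and set, where a group has 2 values, and 7 in the 7 libraries with a shared no-read value (controls 4 and 5 against all stiripentol libraries). Of all genes, 46.5%, 0% and 9.87% were called lower in these settings. The count of 0 called higher was 1 in set A alone, 8 in set B alone, 1 without a filter (Timp4) and 3 for controls 1 to 3 against all stiripentol libraries. The shares of all genes called higher there were 25.7%, 37.7%, 6.47% and 20.1%. Leaving out 1 library gave 11 to 12 lower and 0 higher, against 9.52% to 14.6% of all genes lower and 9.9% to 13.9% higher. Calls were lost for Mmp9, Adamts2 and Mmp14, while the other 10 called genes passed in all 10 such fits. With a replicate block 9 were lower (Mmp9, Timp2, Adamts6 and Mmp14 were lost). That block joins same-numbered libraries, which lie in different sets except for number 3. Among all genes the block took the lower calls from 1740 to 1062 and the higher calls from 1674 to 1020. Other settings gave 9 to 16 lower and 0 higher unless named above, where 6.63% (no filter) to 27.1% (a term for the set) of all genes were lower. The 13 lower without a filter left out Mmp9, Adamts2 and Mmp14 and held Mmp2, Adamts12 and Adamts3. With an absolute log2 change of at least 1, 9 members and 890 genes were lower and 404 higher, and a term for the set gave 3336 and 2908 genes.

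Quantile normalization moved the median of all genes by 0.10 (log2). Relative to that median the members' median was -0.51 there and -0.63 in the values as deposited, and Mmp9, Adamts10 and Adamts6 were lost. Mmp14 was lost with the other 2 scalings.

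The sign turned for genes that had not been called. In set B alone the change was 0.67 for Adamts1, 0.55 for Adamts4, 0.35 for Mmp11, 0.39 for Mmp19 and 0.31 for Mmp24. In set A alone it was 0.26 for Adamtsl3, -0.69 for Adamtsl5, -0.68 for Mmp17, -0.27 for Mmp28, 0.54 for Timp1 and -0.70 for Timp3. In the 7 libraries with a shared no-read value it was 0.54 for Adamtsl3, -0.39 for Adamtsl5, -0.59 for Mmp17, -0.11 for Mmp28, 0.27 for Timp1 and -0.14 for Timp3. For controls 1 to 3 against all stiripentol libraries it was 0.13 for Adamts1, 0.11 for Adamts4 and 0.17 for Mmp11. Mmp19 stood at 0.084 with quantile normalization, 0.016 on median-centred values, 0.0095 with median-of-ratios size factors and -0.20 to 0.13 with 1 library left out. The cause was not tested. Depth limits the values of Mmp3 and Mmp10 in stiripentol libraries and of the members under log2 CPM 0.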
